A study of Mus musculus with 1376 samples.

Results

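The immediate early and heat shock genes described here are 39 of the 46517 genes counted in single cells of mouse lung, chosen by name: 32 immediate early genes and 7 heat shock genes. All 39 were found in the table through their Ensembl identifiers. The study catalogues mouse smooth muscle cells by Smart-Seq2, a full-length RNA sequencing method for single sorted cells, its lung data hold 1376 cells, and its labels name 3 mice: male mouse 1 on plates 045s and 046s and male mouse 2 and female mouse 1 on 1 plate each. Every mouse was of the strain ACTA2GFP:CSPG4dsRED, whose name gives reporters for smooth muscle actin and for the proteoglycan NG2. No treatment is labelled, and the ages are given as 8 to 30 weeks for the samples and 8 to 21 weeks in the series description, which speaks of males only. Cells were sorted into plates of 384 wells after enzymatic dissociation of a tissue that the protocol calls heart and the tissue label lung, and no source used here gives the sort gate. Effects of plate, sex and mouse cannot be told apart between male mouse 2 and female mouse 1, and levels in dissociated cells and in intact lung cannot be told apart, since all cells were dissociated. Values of the 3 mice are given in the order just named, as are those of the 4 plates.

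Immediate early genes are transcribed within minutes of a stimulus without new protein synthesis, mostly through serum response factor with its ternary complex partners, CREB, and other factors already present in the cell. Many encode transcription factors, such as the AP-1 subunits of the Fos and Jun families, the zinc finger proteins Egr1 to Egr3 and the orphan nuclear receptors Nr4a1 to Nr4a3, and others encode brakes on the same signals, such as the MAP kinase phosphatase Dusp1 and the mRNA decay factor Zfp36. Heat shock genes encode chaperones that hold or refold proteins and are induced by heat shock factor 1. Both groups are known to rise while tissue is dissociated, and smooth muscle cells are known to induce immediate early genes on stretch and on contractile stimuli.

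A median cell had 230688 counts (range 50835 to 1074103), and the 4 plates held between 66873579 and 98841310 counts. Cells were grouped without the 39 genes and named from marker genes, which gave 6 classes with at least 10 cells in every mouse. Cells like vascular smooth muscle cells (SMC) were the most numerous in total, though only 48 came from female mouse 1, and airway SMC-like cells numbered 42, 12 and 29 in the 3 mice. Pericyte-like cells numbered 22, 11 and 82, alveolar myofibroblast-like cells 27, 41 and 33, alveolar fibroblast-like cells 46, 57 and 36 and adventitial fibroblast-like cells 28, 20 and 41. A further 65 endothelial-like and 57 macrophage-like cells, too few in some mice, and the unnamed cells entered no test. The vascular SMC-like class showed Acta2, Myh11, Notch3 and P2rx1, the airway class Hhip and Sbspon with the contractile genes, and the pericyte-like class Trpc6, Higd1b and Postn. Alveolar myofibroblast-like cells showed Lgr5 and Pappa2, alveolar fibroblast-like cells Npnt and Slc7a10, and adventitial fibroblast-like cells Pi16 and Adh7. Hhip was higher in alveolar myofibroblast-like cells (mean 6156 CPM, counts scaled to a common total) than in airway SMC-like cells (3188 CPM). Notch3 was higher in pericyte-like cells (1609 CPM) than in vascular SMC-like cells (658.9 CPM). The other markers given by symbol were highest in their own class. Further genes of the marker lists were not, such as Wnt5a for airway, Lamc3 for pericyte, Pdgfra for alveolar myofibroblast and Dpt for adventitial fibroblast. Counts of the 8 macrophage markers appeared in 3.74% to 44.4% of vascular SMC-like cells (median over markers 19.9%). Those of the 8 endothelial markers appeared in 6.81% to 83.3% (median 14.2%). Stray counts and expression by these cells cannot be told apart here. The summed counts behind a class in a mouse ran from 2047774, in 11 pericyte-like cells of male mouse 2, to 76570711 in 250 vascular SMC-like cells of male mouse 1.

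The sequence before the start site was available from RefSeq (GRCm38.p6) for 31 of the 39 genes, and 250 bases of it are printed for 6 genes that the values below turn on or that differ only in a few letters. Fos (chr12:85473640-85473889, plus strand) is shown as the most abundant member, Btg2 (chr1:134079156-134079405, minus strand) and Nr4a2 (chr2:57124004-57124253, minus strand) as genes that differed between classes, and 3 heat shock genes for comparison with them. Those are Hspa1a (chr17:34972157-34972406, minus strand), Hspa1b (chr17:34959239-34959488, minus strand) and Hspb1 (chr5:135887669-135887918, plus strand). Each reads 5′ to 3′ in the direction of transcription and ends at the base before the start site. Capitals mark every match, on either strand, to the core of the cyclic AMP response element TGACGT, to the EGR site GCGNGGGCG, or to a head to head pair of heat shock units GAANNTTC. They also mark TATAAA, on the strand shown only.
Fos: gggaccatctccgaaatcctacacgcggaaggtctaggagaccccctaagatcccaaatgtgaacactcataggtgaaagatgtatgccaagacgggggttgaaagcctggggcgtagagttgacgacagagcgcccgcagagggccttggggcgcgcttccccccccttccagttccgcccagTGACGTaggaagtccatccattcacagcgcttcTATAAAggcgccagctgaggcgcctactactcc
Btg2: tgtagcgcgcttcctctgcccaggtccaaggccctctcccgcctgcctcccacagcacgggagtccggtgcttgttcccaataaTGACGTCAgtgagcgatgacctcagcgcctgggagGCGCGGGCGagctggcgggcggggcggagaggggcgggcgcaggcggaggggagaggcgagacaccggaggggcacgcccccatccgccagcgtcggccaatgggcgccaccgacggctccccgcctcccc
Nr4a2: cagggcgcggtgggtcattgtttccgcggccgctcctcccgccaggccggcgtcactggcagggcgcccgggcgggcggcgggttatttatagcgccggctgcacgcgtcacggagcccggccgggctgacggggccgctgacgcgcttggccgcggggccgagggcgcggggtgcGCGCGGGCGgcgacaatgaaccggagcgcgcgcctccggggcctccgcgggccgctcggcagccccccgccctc
Hspa1a: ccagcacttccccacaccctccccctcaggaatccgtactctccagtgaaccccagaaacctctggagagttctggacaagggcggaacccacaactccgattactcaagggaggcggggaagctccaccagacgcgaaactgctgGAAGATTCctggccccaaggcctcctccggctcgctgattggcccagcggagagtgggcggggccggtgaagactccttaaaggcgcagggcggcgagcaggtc
Hspa1b: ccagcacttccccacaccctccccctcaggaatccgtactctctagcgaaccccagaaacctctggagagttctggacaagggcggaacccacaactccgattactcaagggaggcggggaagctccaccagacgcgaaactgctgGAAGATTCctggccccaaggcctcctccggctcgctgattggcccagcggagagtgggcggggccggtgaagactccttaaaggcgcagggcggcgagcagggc
Hspb1: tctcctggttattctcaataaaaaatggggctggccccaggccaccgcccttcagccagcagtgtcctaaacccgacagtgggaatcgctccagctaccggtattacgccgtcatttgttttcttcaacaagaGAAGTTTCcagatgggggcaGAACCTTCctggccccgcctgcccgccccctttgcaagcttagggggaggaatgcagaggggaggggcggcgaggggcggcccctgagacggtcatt
The Fos window has TGACGT beginning 66 bases and TATAAA 33 bases before the start site. In Btg2 TGACGT matches overlap on both strands upstream of an EGR site, and Nr4a2 has an EGR site 74 bases before its start. The windows of Hspa1a and Hspa1b, neighbours on chromosome 17, differ in 3 of 250 bases and each hold 1 pair of heat shock units, while Hspb1 holds 2 pairs, the nearer beginning 97 bases before the start. TGACGT was found in 8 of 26 immediate early genes with a window (Fos, Egr2, Atf3, Nr4a3, Btg1, Btg2, Dusp1 and Ccn1) and in 0 of 5 heat shock genes, against 6.47% of 32851 mouse promoter windows. The EGR site was found in 10 of 26 immediate early genes, against 4.70% of all windows, and GAANNTTC in 3 of 5 heat shock and 2 of 26 immediate early genes, against 6.69%. TTCNNGAA, the tail to tail pair, stood in Egr2, Ccn1 and Hsph1, against 7.17% of windows. The CArG box, the serum response factor site, was found in Egr2 and Zfp36, against 1.47%, and the AP-1 site TGANTCA in Zfp36l1, against 6.75%. TATAAA, sought only in the direction of transcription, was found in 5 immediate early genes, against 7.59%. A gene was counted if any of its windows matched, while the shares are over single windows. Egr2, Dnajb1 and Hsph1 had more than 1 window, so for them the 2 are not like measures. A match describes these letters and is not a bound site.

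The 39 genes together held 2.35% of all counts, and a median cell had counts for 28 of them (range 13 to 38). Fos, the AP-1 subunit (ENSMUSG00000021250, chr12:85473890-85477273 in GRCm38), had a count in 1376 of 1376 cells. Per length it was also the most abundant member, at 1413 CPM per kb of exon over all cells, where CPM are counts scaled to a common total. Ccn1, a matricellular protein that is a target of YAP, followed at 912, Junb at 653.25, Nr4a1 at 601.1, the antiproliferative cofactor Btg2 at 554.9, Dusp1 at 503.96 and Egr1 at 481.6 on the same scale per length. The most abundant heat shock gene per length was Hspb1, a small chaperone known to act on actin filaments, at 316.7 CPM per kb, ahead of the inducible HSP70 gene Hspa1a at 235.2 and the constitutive HSP70 gene Hspa8 at 106.9. At the other end stood Egr3 at 0.251 and the AP-1 subunit Fosl1 at 1.69, with a count in 40 and 39 cells. Most of the list was therefore measured in most cells, and Egr3 and Fosl1 hardly at all.

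Some members cannot be separated from neighbours or copies. Hspa1a and Hspa1b share 1716 identical stretches of 50 bases, which is 58.8% of those in Hspa1a and 62.3% of those in Hspa1b, so their counts depend on how shared reads were treated, for which no source used here gives the setting. Jun overlaps Junos, Hspa1a Gm20481, Junb Prdx2, Dusp1 Ergic1, Ccn2 Gm15270, Zfp36l1 Gm26669, Jund Gm11175 and Fosl1 Ccdc85b on the opposite strand, and without strand their reads cannot be told apart. Hspa8 holds the small nucleolar RNA genes Snord14c, Snord14d and Snord14e on its own strand.

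The share of a cell's counts in the 32 immediate early genes varied widely, from 0.0375% to 8.27% with a median of 1.85% over all cells. The 7 heat shock genes took 0.172% in the median cell and up to 1.46%. Among vascular SMC-like cells alone, the median immediate early share was 2.13% on plate 045s, 2.70% on 046s, 1.70% on that of male mouse 2 and 1.84% on that of female mouse 1, and on each plate the 5th and 95th percentiles of cells lay far apart, at 0.350% and 4.35% on 045s for example. A median over many cells varies less than single cells do, so these percentiles and the plate medians cannot be set against each other.

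Fos was high in most cells of every plate. In vascular SMC-like cells its median was 4359 CPM on 045s, 4993 on 046s, 4142 on that of male mouse 2 and 3034 on that of female mouse 1, and its coefficient of variation (SD over mean, across cells) ran from 0.581 to 0.796. Egr1, the zinc finger factor, had similar medians on 3 plates, 1834, 2716 and 2144 CPM on 045s, 046s and that of female mouse 1, and 1165 CPM on that of male mouse 2. Its 10th percentile fell to 24.4 CPM on the latter, where the 90th was 5187, so that plate held both cells with very little and cells with much Egr1. Hspa1a had medians of 513.6, 687, 473.6 and 584.4 CPM in the same plate order, with a 10th percentile between 14.01 and 29.3 CPM and a 90th between 1340 and 1899. Zfp36l1, a relative of Zfp36 in mRNA decay, and Hspa8 were among the steadiest members, with coefficients of 0.574 to 0.787 and 0.568 to 0.812.

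A second kind of member was absent or low in many cells and high in others. Nr4a2 had a count in 23.6% to 51.96% of vascular SMC-like cells across plates, a median of at most 1.38 CPM and a highest cell at 3713 CPM. Dnajb1, the HSP40 partner of HSP70, had medians of 19.9, 224.3, 15.8 and 6.78 CPM on the 4 plates and 90th percentiles of 749, 1231, 656 and 506.4 CPM. Atf3, a stress-induced repressor of the ATF family, was broader, with a median of 460 to 1250 CPM and a 90th percentile of 2200 to 3325 CPM. To set this beside other genes of like abundance, the coefficient of variation was taken over genes with a mean of at least 500 CPM. Its median over all such genes was 0.674, 0.691, 0.671 and 0.616 on the 4 plates, and 10 of 11, 12 of 14, 11 of 11 and 10 of 10 immediate early members of that abundance lay above it. Between 100 and 500 CPM, 7 of 11, 9 of 12, 5 of 8 and 5 of 9 did. Of the heat shock members 1 of 3, 2 of 3, 2 of 2 and 1 of 1 lay above the median from 500 CPM upwards, and 1 of 2, 1 of 2, 1 of 3 and 1 of 4 between 100 and 500 CPM.

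**Figure D1:**
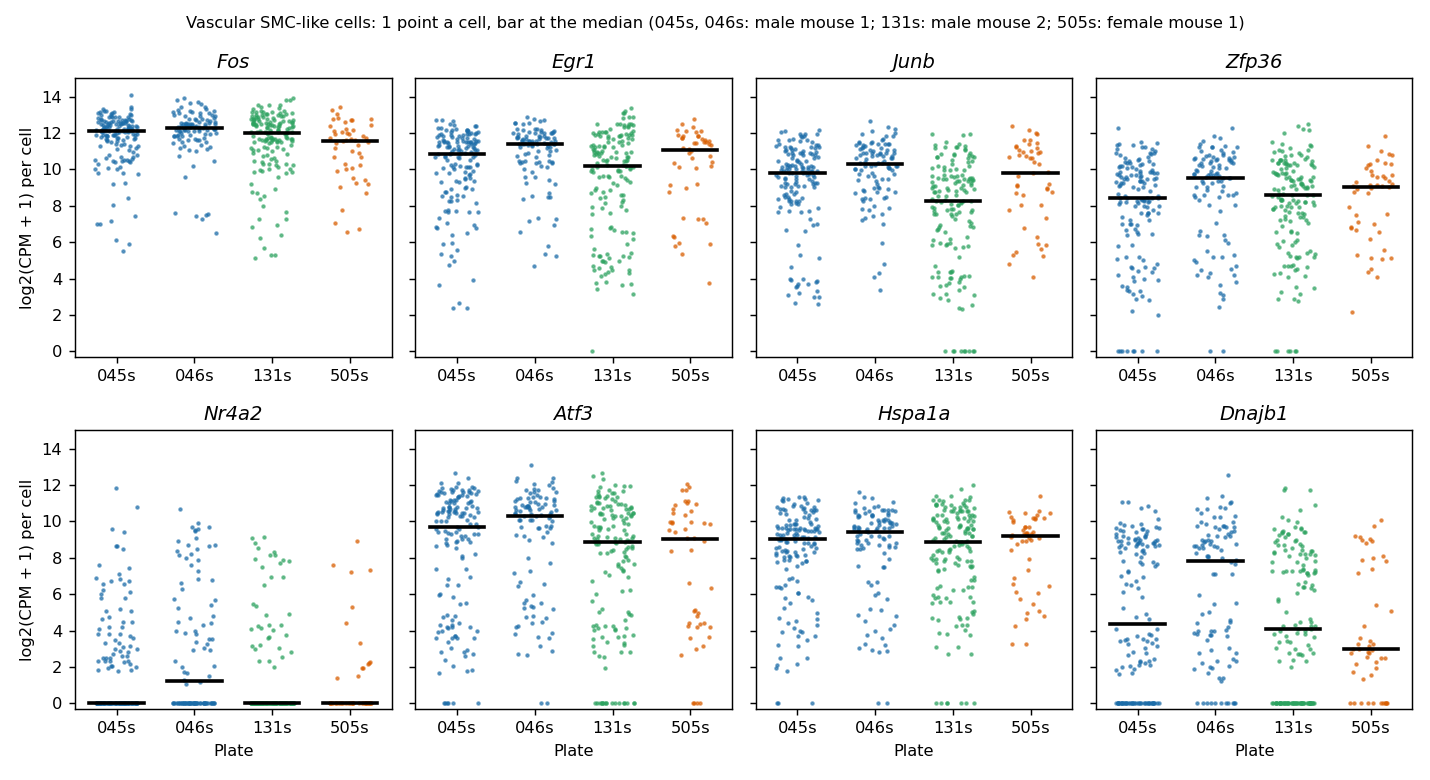
Level of 8 members in single vascular SMC-like cells, as log2(CPM + 1) on the vertical axis, by plate on the horizontal axis; each point is a cell and the bar is the median. Fos lies in a narrow high band in most cells, while Nr4a2 is at 0 in most cells of 3 plates and Dnajb1 is spread from 0 to high values.

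Plates 045s and 046s both held cells of male mouse 1, so mouse and sex were the same for their vascular SMC-like cells. Effects of the plate and of which cells were sorted onto it cannot be told apart. Of the 36 members with at least 30 CPM, 32 were higher on 046s, as were 56.4% of 6544 genes of that level, with a median log2 difference of 0.21 for the members and 0.07 for those genes. The sizes were small for the abundant members: Fos had 4227 CPM in the sum of cells on 045s and 4422 on 046s, and Jun 1391 and 1199. Klf2, Klf4, Gadd45b and Ier5 differed by over 2-fold, as did 7.15% of genes, and were picked for that after their values were seen. Klf2 had 37.1 CPM on 045s and 102.5 on 046s, Klf4 48.6 and 113.6, Gadd45b 66.2 and 140.97, and Ier5 27.1 and 57.99. With 1 plate each there is no replicate of this difference and no test.

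Immediate early genes varied together from cell to cell in a core of few genes. Over the 32 members with a count in at least 25% of vascular SMC-like cells on every plate (25 immediate early, 7 heat shock), the highest Spearman correlations of log2(CPM + 1) joined Egr1 with Nr4a1 (mean over the 4 plates 0.730, range 0.714 to 0.757), Fos with Egr1 (0.700, range 0.561 to 0.859), Fos with Nr4a1 (0.676, range 0.590 to 0.796) and Junb with Nr4a1 (0.657, range 0.601 to 0.696). The typical pair was weak: the median over 300 immediate early pairs was 0.119, 0.141, 0.158 and 0.107 on the 4 plates. For the 21 heat shock pairs it was 0.214, 0.214, 0.180 and 0.124, and for the mixed pairs 0.0701, 0.0712, 0.112 and 0.0896. These points are cells that share a plate (at least 48 cells on each), and each cell's CPM share a denominator, so the values are descriptions. The cells also mix the clusters P and E described below, whose immediate early shares did not overlap. Correlations within P or within E were not computed, and the part of this mixture in the values was not tested.

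Within the immediate early group Egr1 had the highest median correlation with the other immediate early genes (0.296), followed by Fos (0.261), Nr4a1 (0.259), Zfp36 (0.247), Atf3 (0.243) and Junb (0.243). The lowest medians belonged to Ccn2 (0.00472), a matricellular target of YAP like Ccn1, and Mcl1 (0.0423), a survival factor of the BCL2 family, and the lowest pair was Ccn2 with Mcl1 (mean −0.125, range −0.427 to 0.0315). Among heat shock genes the highest pair was Hspa1a with Hspa1b (0.509, range 0.464 to 0.568), followed by Hspa1a with Hspa8 (0.281). Hspa1a and Hspa1b share identical stretches of sequence, and the part of this in their correlation was not tested. Of the mixed pairs Jun with Hspa1a was highest (0.389, range 0.249 to 0.584), and Atf3 with Hspa8 next (0.365). Taken as means over the members, the immediate early level of a cell and its heat shock level had a correlation of 0.257, 0.189, 0.458 and 0.386 on the 4 plates. The same mean levels had correlations between −0.224 and 0.276 with a cell's total counts and number of genes detected, and between −0.214 and 0.120 with its mitochondrial share. After the ranks of total counts and genes detected were removed, Egr1 with Nr4a1 was at 0.732 and Fos with Egr1 at 0.692.

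**Figure D2:**
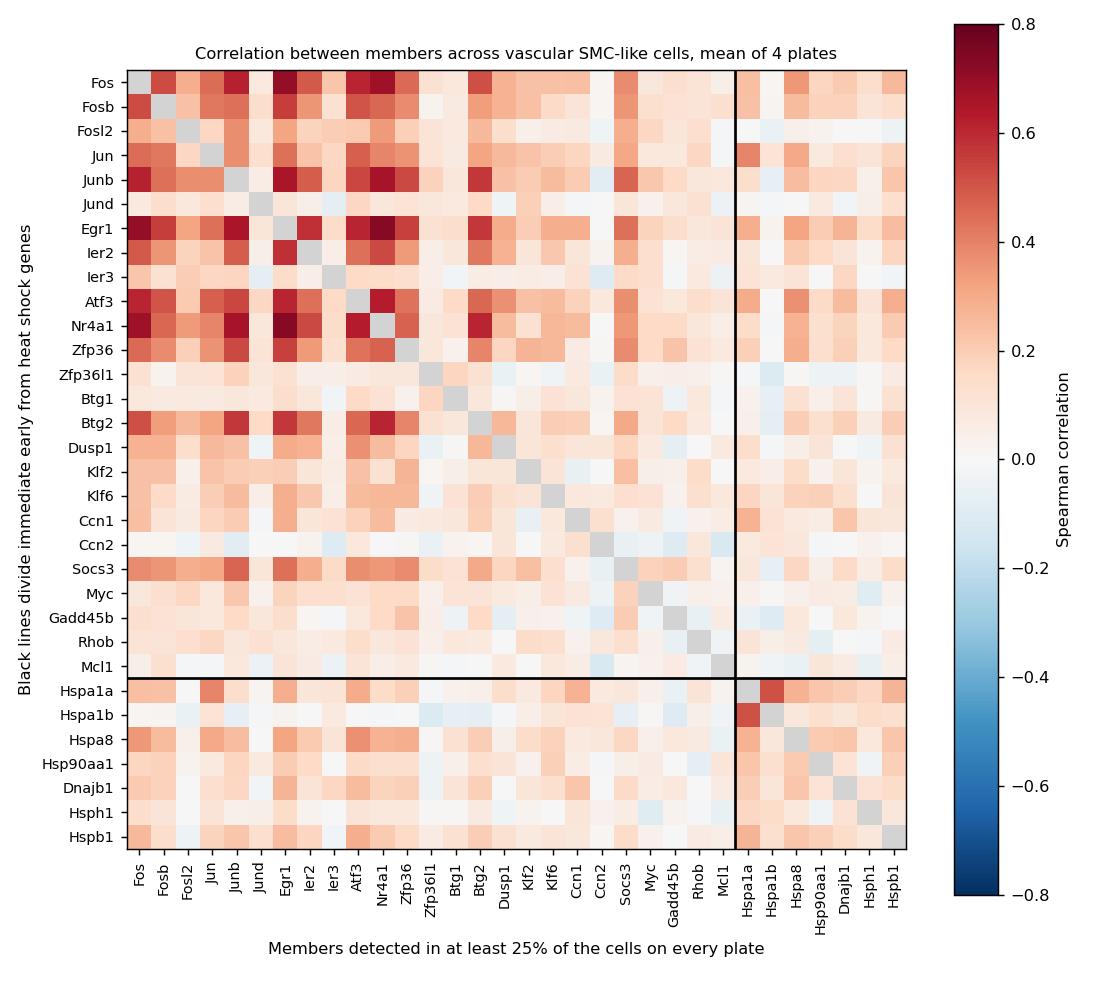
Spearman correlation between each pair of the 32 members across vascular SMC-like cells, as the mean of 4 plates (color, −0.8 to 0.8), with genes on both axes and black lines between immediate early and heat shock genes. Fos, Junb, Egr1, Atf3, Nr4a1 and Btg2 form the darkest block, with Egr1 and Nr4a1 at 0.730, and Ccn2 is pale throughout.

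Outside the members and the other gene lists, 5019 genes were ranked by the mean over plates of their correlation with the mean immediate early level, whose median over these genes was 0.00178. The 10 most alike were Junos (0.512), Coq10b (0.343), Adamts1 (0.340), Gm29233 (0.319), Atf4 (0.311), E330011M16Rik (0.306), Gm42503 (0.306), Sertad1 (0.303), Gm20481 (0.278) and Ccnl1 (0.276). Junos and Gm20481 lie antisense to Jun and Hspa1a, so their reads and those of these members cannot be told apart. Jun is part of the mean immediate early level, while Hspa1a, a heat shock gene, is not. Adamts1 encodes a secreted metalloproteinase, Atf4 the main factor of the integrated stress response and Coq10b a protein of coenzyme Q handling. The lowest plate of the 10 was Gm20481 at 0.103.

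Between classes, airway SMC-like cells gave the largest share of their counts to immediate early genes and pericyte-like cells the smallest. In the 3 mice the share was 3.96%, 3.14% and 3.54% in airway SMC-like cells and 2.29%, 2.11% and 1.78% in vascular SMC-like cells. In pericyte-like cells it was 1.64%, 0.586% and 1.25%. The 3 airway values lay above, and the 3 pericyte values below, all 3 vascular values, while 3 mice against 3 cannot give an exact permutation p under 0.10. Alveolar myofibroblast-like cells stood at 2.39% ± 0.445 (SD, n = 3 mice), alveolar fibroblast-like cells at 2.28% ± 0.213 and adventitial fibroblast-like cells at 2.47% ± 0.302, which overlap each other and the vascular values. The adventitial class joined a cluster found in all 3 mice, at 2.77%, 2.46% and 2.48%, all above the vascular values, and a cluster of 16 cells of female mouse 1 alone, at 1.65%. For the heat shock genes adventitial fibroblast-like cells had the highest mean, at 0.309%, 0.321% and 0.1996%, although airway SMC-like cells were higher in female mouse 1 at 0.21%, and pericyte-like cells were lowest, at 0.182%, 0.0976% and 0.135%. Vascular SMC-like cells had 0.224% ± 0.0521 and airway SMC-like cells 0.227% ± 0.0403 for the heat shock genes, which overlapped.

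**Figure D3:**
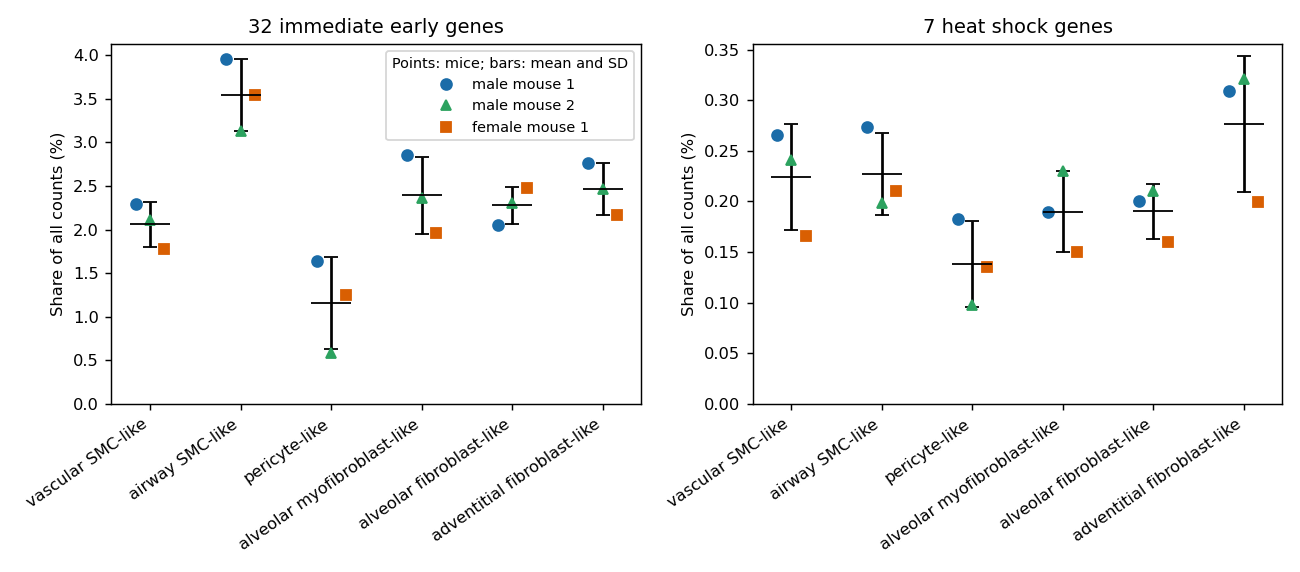
Share of all counts (%, vertical axis) in the 32 immediate early genes (left) and the 7 heat shock genes (right) for 6 classes; points are the 3 mice, and bars the mean and SD. The airway points lie between 3.14% and 3.96% and the pericyte points between 0.586% and 1.64% on the left.

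By the mean over mice, 20 of the 39 genes were highest in airway SMC-like cells, as were 16.7% of the 16229 genes tested, and 27 of the 39 were lowest in pericyte-like cells, as were 22.3%. None of the 39 was highest in pericyte-like cells, where 22.4% of all genes were. Adventitial fibroblast-like cells were highest for 8, against 14.3% of all genes, among them Egr2, the relative of Egr1 known for myelinating glia, at 252.9, 226.6 and 183.4 CPM (scaled by TMM). The next class for Egr2, alveolar fibroblast-like cells, had 89.96, 158.4 and 46.2 CPM, all below. Dnajb1 was also highest there, at 767, 698 and 507.6 CPM, above the 478.97, 449.2 and 393.03 CPM of alveolar fibroblast-like cells. Hspa1a was at 1015, 1326 and 830 CPM in adventitial and 604.8, 1070 and 785 CPM in alveolar myofibroblast-like cells, which overlapped. For Fos the order of class means was airway 4510 ± 505.6 (SD, n = 3 mice), vascular 3843 ± 867, alveolar myofibroblast 3299 ± 870, adventitial 2876 ± 225.7, alveolar fibroblast 2676 ± 276.3 and pericyte 1583 ± 1124 CPM, and every neighbour in that order overlapped the next. The sums alone do not tell fewer cells with a transcript from less transcript per cell. Fos had a count in all 1376 cells. The share of cells with a Fos count was therefore the same in every class, and Fos passed the test in none of the class comparisons below. Whether classes differed in the share of cells with high Fos was not tested, and stray counts cannot be told from expression. Nr4a2 had a count in only 11, 0 and 26 pericyte-like cells of the 3 mice. For such members fewer cells with a transcript and less transcript per cell were not separated.

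**Figure D4:**
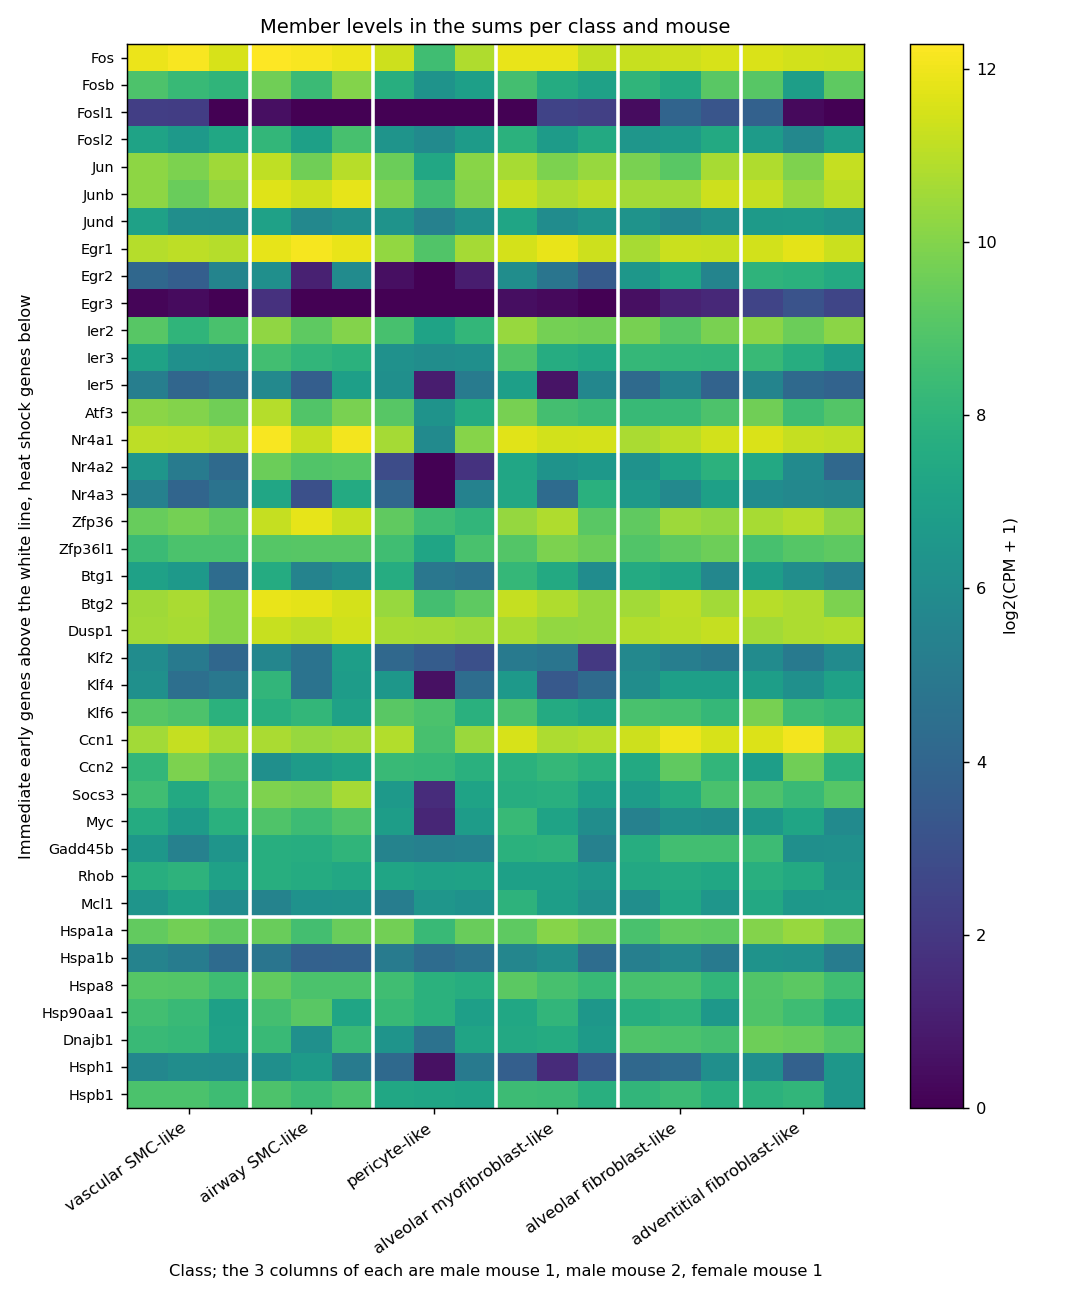
Level of each of the 39 members (rows) in the sums of each class and mouse (columns), as log2(CPM + 1) in color, with the 3 mice of a class side by side and heat shock genes below the white line. Fos is bright throughout except in pericyte-like cells of male mouse 2, at 361.1 CPM, and Egr3 and Fosl1 are dark.

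Airway smooth muscle was compared with vascular smooth muscle to ask how the members differ between the contractile cells of airways and of vessels. In airway SMC-like cells 7 immediate early genes rose: Junb, Ier2, Ier3, Nr4a2, Zfp36, Btg2 and Dusp1, and Ccn2 fell. Of the 16229 genes tested 1.14% were called higher and 0.893% lower (2.03% together) at an adjusted p under 0.05 (edgeR's quasi-likelihood test, two-sided, Benjamini-Hochberg over all genes tested, mouse as a block). The median log2 fold change was 0.91 over the 32 immediate early genes and −0.19 over all genes, and 13 immediate early genes had all 3 airway values above all 3 vascular ones, as had 5.7% of genes, against 1 below, as had 12.7%. None of the 7 heat shock genes was called (0 at an unadjusted p under 0.05), with a median of 0.01.

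Among AP-1 genes Junb (ENSMUSG00000052837, chr8:84974484-84978718), a Jun family subunit with a weaker transactivating domain than Jun, had 3255, 2627 and 3639 CPM in airway and 1169, 702 and 1198 CPM in vascular cells. All airway values were more than the highest vascular value. The log2 fold change was 1.67 (SE 0.22, adjusted p = 6.82e-04), and Junb was the only one of the 8 called under all 15 alternatives. Fos was at 5004, 4533 and 3993 CPM against 3901, 4680 and 2948 CPM, groups that overlapped, with a log2 fold change of 0.22 (SE 0.43, adjusted p = 0.984). Jun overlapped as well, with 2186, 778 and 1998 CPM against 1176, 924 and 1496 CPM and a log2 fold change of 0.34 (SE 0.32, adjusted p = 0.878). Junb is thus the AP-1 gene that passed the test, and neither Fos nor Jun did. Whether Junb differed more than Fos was not tested.

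Of the other transcription factors Nr4a2 rose from 86, 33.1 and 17.8 CPM in vascular SMC-like cells to 740, 499.9 and 529.3 CPM in airway SMC-like cells, with no overlap. Its log2 fold change was 3.91 (SE 0.80, adjusted p = 0.0191), and in the airway sums of male mouse 2 its counts came from 5 of 12 cells. Egr1 was at 3660, 4462 and 3727 CPM against 1963, 2149 and 1926 CPM. These groups did not overlap either, and the test missed the threshold (log2 fold change 0.97, SE 0.31, adjusted p = 0.166). The brakes on signalling moved the same way: Zfp36, which binds AU-rich mRNAs and speeds their decay, had 2351, 3605 and 2484 CPM against 681, 832 and 629.03 CPM (log2 fold change 1.97, SE 0.36, adjusted p = 0.00915). Dusp1 had 2437, 2118 and 2735 CPM against 1518, 1662 and 1115 CPM (log2 fold change 0.76, SE 0.18, adjusted p = 0.0385), without overlap for either gene.

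Btg2 had 3792, 3514 and 2842 CPM against 1493, 1713 and 1097 CPM (log2 fold change 1.24, SE 0.30, adjusted p = 0.0486). Ier2, a nuclear regulator, had 1211, 610.3 and 1012 CPM against 546.5, 258.99 and 429.7 CPM (log2 fold change 1.21, SE 0.22, adjusted p = 0.00798), and Ier3, a regulator of survival signalling, 384.6, 273.9 and 233.03 CPM against 135.1, 71.6 and 65.3 CPM (log2 fold change 1.76, SE 0.32, adjusted p = 0.00928). The values of both classes did not overlap for any of these. Ccn2, also known as connective tissue growth factor, went the other way, at 69.1, 105.3 and 132.5 CPM in airway against 283.8, 931 and 552.5 CPM in vascular cells (log2 fold change −2.37, SE 0.46, adjusted p = 0.0138), again without overlap. Its family member Ccn1 was not called, at 1508 ± 185.8 (SD, n = 3 mice) against 1829 ± 439.9 CPM. Hspa1a (log2 fold change −0.19, SE 0.35, adjusted p = 0.983) and Hspa8 (0.16, SE 0.21, adjusted p = 0.950) overlapped.

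Among 60 tested genes of the list of other rapid response genes, 5 rose and 1 fell in airway SMC-like cells. Cebpd, a C/EBP transcription factor, had 568.5 ± 310.5 against 54.3 ± 27.9 CPM (SD, n = 3 mice, log2 fold change 3.36, adjusted p = 4.43e-04), the matricellular thrombospondin Thbs1 3020 ± 521.8 against 964 ± 283.8 CPM (1.66, adjusted p = 0.0388) and Phlda1 49.2 ± 37.8 against 7.15 ± 7.27 CPM (2.97, adjusted p = 0.00732). Hbegf, a ligand of the EGF receptor, fell from 27.5 ± 14.2 to 0.590 ± 0.388 CPM (−5.61, adjusted p = 0.0121). Of 30 other chaperone genes and 19 upstream factors such as serum response factor and heat shock factors, 0 were called with edgeR (3 and 2 at an unadjusted p under 0.05). The summed cardiomyocyte markers, 7 genes with 2 at 0 in all airway sums, were at 297.9, 845 and 65.04 CPM in airway SMC-like cells and 71.9, 56.7 and 46.2 CPM in vascular ones, and the 5 Schwann cell markers at 47.7, 11.4 and 43.6 against 3.75, 6.16 and 0.271 CPM, with 2 at 0. Their part in the result was not tested. Leaving out male mouse 1, male mouse 2 or female mouse 1 left 1 of the 8 calls each time, and without the mouse block 2 were called (Junb and Zfp36).

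Pericytes were compared with vascular SMC as the other mural cell of vessels. In pericyte-like cells 5 members fell and 0 rose: the transcription factors Egr2, Nr4a2 and Atf3 and the chaperones Hspb1 and Hspa8. Among all genes tested 1.72% were called lower and 1.73% higher (3.44% together). All members but Dusp1 (log2 fold change 0.12) had a fold change below 0, and the median was −0.80, against −0.27 over all genes. Of the 39 members 10 had all 3 pericyte values below all 3 vascular ones, as had 13.2% of genes, and 0 had all above, as had 7.25%.

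Egr2 was nearly absent from pericyte-like cells, at 0.439, 0 and 0.968 CPM, against 16.2, 11.6 and 46.3 CPM in vascular SMC-like cells. Those are 3, 0 and 17 counts against 1374, 270 and 683 counts (log2 fold change −5.40, SE 1.25, adjusted p = 0.0265). Nr4a2 had only 43, 0 and 44 counts there, which is 6.29, 0 and 2.51 CPM against 86, 33.1 and 17.8 CPM (log2 fold change −3.86, SE 0.83, adjusted p = 0.0164). Atf3 was at 551.8, 78.9 and 189.1 CPM against 1156, 1035 and 792 CPM (log2 fold change −2.21, SE 0.45, adjusted p = 0.0114). None of the 3 factors overlapped between the classes.

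Of the chaperones Hspb1 (ENSMUSG00000004951, chr5:135887919-135889563) was at 158.2, 148.5 and 137.5 CPM in pericyte-like and 452.1, 440.95 and 358.7 CPM in vascular SMC-like cells, narrow groups that did not overlap (log2 fold change −1.48, SE 0.30, adjusted p = 0.0115). Hspa8 was at 369.8, 232.2 and 200.1 CPM against 526.97, 503.7 and 350.2 CPM, lower in pericyte-like cells in 3 of 3 mice although the groups overlapped (log2 fold change −0.80, SE 0.21, adjusted p = 0.0494), and it was not called when size factors of the RLE kind replaced TMM. Those factors moved the median of all genes from −0.27 to −0.15 here and from −0.19 to −0.09 in airway SMC-like cells. Hspa1a had 821, 325.8 and 705 CPM against 635.9, 817 and 618.4 CPM, with overlap (log2 fold change −0.15, SE 0.35, adjusted p = 0.901).

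Fos, Egr1 and Jun were lower in pericyte-like cells of each of the 3 mice without passing the threshold, while Dusp1 was at 1654, 1597 and 1418 CPM in pericyte-like and 1518, 1662 and 1115 CPM in vascular SMC-like cells, which overlapped. Fos had 2574, 361.1 and 1813 CPM against 3901, 4680 and 2948 CPM (log2 fold change −1.34, SE 0.44, adjusted p = 0.128). Egr1 had 1263, 495.3 and 1564 CPM against 1963, 2149 and 1926 CPM (−0.85, SE 0.31, adjusted p = 0.172), and Jun 738, 165.6 and 1085 CPM against 1176, 924 and 1496 CPM (−1.12, SE 0.33, adjusted p = 0.0794). Fos and Egr1 did not overlap, and Jun did. For Fos, Egr1 and Jun the lowest value was that of male mouse 2, whose sum rests on 11 cells.

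The pericyte-like class joined 2 clusters, of 72 and 43 cells, which differed in the immediate early share within each mouse. It was 1.78%, 0.734% and 1.49% in the larger cluster (16, 4 and 52 cells) and 1.28%, 0.440% and 0.635% in the smaller one (6, 7 and 30 cells). All these values lay below the vascular share of the same mouse. Without male mouse 2 none of the 5 calls was made, and a fit of these classes alone also made 0 calls, while cells thinned to 50000 counts gave 12.

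In the other rapid response genes 3 rose and 2 fell of 60 tested: Hbegf, from 27.5 ± 14.2 to 473.8 ± 218.5 CPM (SD, n = 3 mice, log2 fold change 4.06, adjusted p = 0.0237), Phlda1, from 7.15 ± 7.27 to 57.5 ± 36.7 CPM (3.28, adjusted p = 0.00357), and the ERK phosphatase Dusp6, from 7.57 ± 6.18 to 160 ± 98.7 CPM (4.42, adjusted p = 0.0367), were higher. Of 30 other chaperone genes 2 fell, the small heat shock proteins of muscle Hspb6 (863 ± 178.2 to 141.5 ± 49.3 CPM, −2.67, adjusted p = 0.0245) and Hspb8 (133.9 ± 12.2 to 12.1 ± 18.8 CPM, −3.80, adjusted p = 0.0203). None of 19 upstream factors was called with edgeR (1 at an unadjusted p under 0.05). The 7 cardiomyocyte markers summed to 0.490 to 11.1 CPM in pericyte-like and 46.2 to 71.9 CPM in vascular SMC-like cells, with 2 at 0 in the former, and the 7 epithelial markers to 51.1 to 106.2 against 14.5 to 50.2 CPM, again with 2 at 0. Their part in the result was not tested.

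Alveolar fibroblast-like cells were compared with the same vascular sums, which the airway and pericyte comparisons also used. The genes Junb, Ier2 and Ier3 rose and no member fell, where 3.43% of all genes were called higher and 2.42% lower (5.85% together). Junb had 1532, 1549 and 2594 CPM against 1169, 702 and 1198 CPM (log2 fold change 0.91, SE 0.21, adjusted p = 0.0180), Ier2 858, 548.3 and 916 CPM against 546.5, 258.99 and 429.7 CPM (0.95, SE 0.22, adjusted p = 0.0151) and Ier3 286.9, 284.4 and 273.3 CPM against 135.1, 71.6 and 65.3 CPM (1.74, SE 0.32, adjusted p = 0.00383). None of the 3 overlapped. Fos (−0.51, SE 0.43, adjusted p = 0.823), Jun (−0.33, SE 0.32, adjusted p = 0.882), Egr1 (0.13, SE 0.31, adjusted p = 1.0), Hspa1a (−0.30, SE 0.35, adjusted p = 0.951) and Hspa8 (−0.29, SE 0.21, adjusted p = 0.721) were not called, and all of these overlapped. The median over the 32 immediate early genes was 0.43, against −0.08 over all genes, and 10 of the 39 members had values apart and higher, as had 12.8% of genes, and 3 apart and lower, as had 13.1%.

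In the wider lists 6 other rapid response genes rose and 1 fell of 60. Phlda1 had 157.4 ± 89.3 against 7.15 ± 7.27 CPM (SD, n = 3 mice, log2 fold change 4.77, adjusted p = 1.19e-04), Cebpd 225.7 ± 28.6 against 54.3 ± 27.9 CPM (2.24, adjusted p = 0.00245) and the kinase Plk2 255.97 ± 102.45 against 14.1 ± 4.49 CPM (4.17, adjusted p = 0.00814), and the thioredoxin inhibitor Txnip was lower (−1.09, adjusted p = 0.00443). Of 30 other chaperone genes 4 fell, among them Hspb6 (30.5 ± 14.4 against 863 ± 178.2 CPM, −5.00, adjusted p = 3.16e-04), Hspa2 (−4.34, adjusted p = 0.0120) and the HSP90 gene Hsp90ab1 (−0.56, adjusted p = 0.0247), and the endoplasmic reticulum chaperone Hsp90b1 rose (1.003, adjusted p = 0.0230). None of 19 upstream factors was called with edgeR (1 at an unadjusted p under 0.05). The 3 member calls shrank to 0 without the mouse block and to 0 without male mouse 2 or without female mouse 1. With plate 045s alone for male mouse 1 there were 6. The 8 macrophage markers, none at 0, summed to 68.7 to 98.6 CPM in alveolar fibroblast-like and 13.3 to 38.4 CPM in vascular SMC-like cells, and their part in the result was not tested.

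The 2 kinds of alveolar mesenchymal cell did not differ in any member by the test. For alveolar myofibroblast-like against alveolar fibroblast-like cells edgeR called 0 of 39, with 0 higher and 4 lower at an unadjusted p under 0.05 (Dusp1, Klf4, Klf6 and Dnajb1), as were 4.44% and 8.03% of genes. DESeq2 called 0 members as well, and 2.82% of all genes higher and 5.12% lower, where edgeR called 2.26% of all genes (0.856% higher and 1.4% lower). In myofibroblast-like cells 1 member was apart and higher and 5 apart and lower, as were 6.25% and 10.5% of genes. Fos had 3831, 3772 and 2296 CPM in the first class and 2410, 2655 and 2962 CPM in the second (log2 fold change 0.28, SE 0.43, adjusted p = 0.943). Egr1 had 2933, 3794 and 2610 CPM against 1653, 2511 and 2463 CPM (0.50, SE 0.31, adjusted p = 0.618), apart by a small margin, while Fos overlapped. Jun (0.44, SE 0.32, adjusted p = 0.716), Hspa1a (0.55, SE 0.35, adjusted p = 0.644) and Hspa8 (0.20, SE 0.21, adjusted p = 0.875) overlapped too.

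Rapid response genes outside the 39 did differ between these alveolar classes, with 4 lower and 1 higher of 60. Lower in myofibroblast-like cells were the cytokines Il6, at 0.289 ± 0.197 against 50.8 ± 7.12 CPM (SD, n = 3 mice, log2 fold change −8.04, adjusted p = 0.00866), and Lif, at 0.159 ± 0.138 against 84.8 ± 49.6 CPM (−8.90, adjusted p = 0.0127), and the prostaglandin synthase Ptgs2, at 0.406 ± 0.0849 against 80.1 ± 38.7 CPM (−7.53, adjusted p = 0.0151). Txnip was higher, at 1468 ± 218.1 against 614.9 ± 166.99 CPM (1.26, adjusted p = 0.00308), and so was Hspb6 among the chaperones, at 187.7 ± 117.01 against 30.5 ± 14.4 CPM (2.56, adjusted p = 0.0413). Upstream factors had 0 calls of 19 with edgeR (0 at an unadjusted p under 0.05). The 5 Schwann cell markers, with 2 and 3 at 0, summed to 87.9 to 183.2 CPM in myofibroblast-like and 3.66 to 17.9 CPM in fibroblast-like cells, and their part in the result was not tested.

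Vascular SMC-like cells fell into 2 clusters drawn without the members, P with P2rx1, Stac and Kcna5 (190, 81 and 26 cells) and E with Efhd1, Sfrp2 and Sost (60, 76 and 22 cells). The immediate early share was 2.44%, 2.35% and 2.02% in P and 1.86%, 1.88% and 1.52% in E, which do not overlap. No single member passed the test with edgeR: 0 of 38 tested were called, with 14 higher and 2 lower in P at an unadjusted p under 0.05, as were 3.56% and 3.1% of genes, and 0.0872% of all 13764 genes were called in each direction (0.174% together). DESeq2 called 9 members higher (Fosl2, Junb, Egr1, Nr4a1, Nr4a2, Nr4a3, Btg2, Socs3 and Gadd45b) and 0 lower, and 1.97% of all genes higher and 1.58% lower. The median log2 fold change was 0.54 over immediate early genes and 0.03 over all genes, and 10 members were apart and higher in P, as were 5.49% of genes, against 1 lower, as were 4.62%.

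Fos had 4124, 5303 and 3459 CPM in P and 3408, 4221 and 2695 CPM in E, higher in P in 3 of 3 mice with overlapping groups (log2 fold change 0.32, SE 0.05, adjusted p = 0.179). Egr1 had 2095, 2583 and 2345 CPM against 1656, 1792 and 1666 CPM, without overlap (0.45, SE 0.07, adjusted p = 0.180). Jun was level, at 1173, 1014 and 1573 CPM against 1226, 865 and 1568 CPM (0.06, SE 0.09, adjusted p = 0.946). Hspa1a, at 595.2, 728 and 562.8 CPM against 774, 931 and 744 CPM, was the 1 member apart and lower in P (−0.38, SE 0.09, adjusted p = 0.404), and Hspa8 overlapped (−0.09, SE 0.11, adjusted p = 0.925). Of the other rapid response genes 1 of 53 was called, Thbs1, higher in P at 1631 ± 668 against 192.4 ± 102.1 CPM (SD, n = 3 mice, log2 fold change 3.13, adjusted p = 0.0380). Other chaperone genes and upstream factors had 0 calls with edgeR (5 and 0 at an unadjusted p under 0.05).

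**Figure D5:**
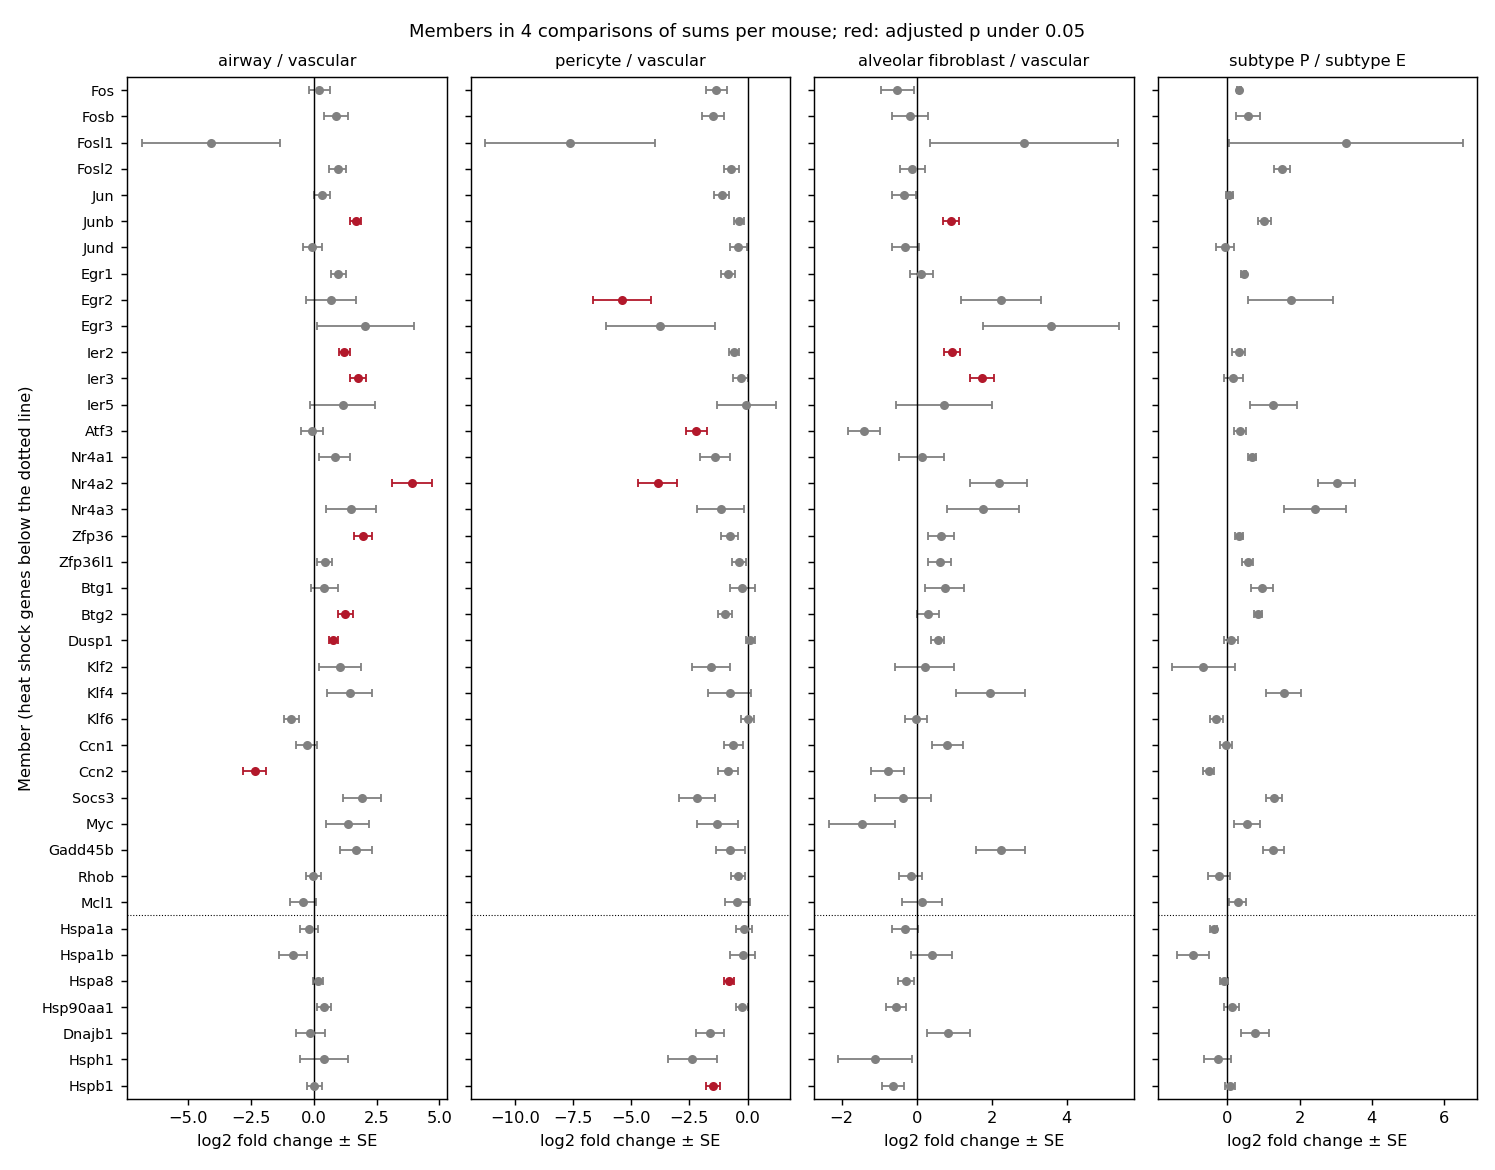
log2 fold change (horizontal axis, bars ± SE) of each member (rows) in 4 comparisons of sums per mouse, from edgeR with n = 3 mice a class; red marks an adjusted p under 0.05, and the horizontal scales differ between panels. The airway panel has 7 red points above 0 and 1 below, the pericyte panel 5 below and the subtype panel none.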

How the data were processed

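Single cells of lung from 3 mice were measured by Smart-Seq2, which has no molecular identifiers, on 4 plates. The deposited values are raw counts per gene and cell, whole numbers that the authors made; per the submitters' processing notes, bcl2fastq, Bowtie, Bowtie2, featureCounts and Subread were used with GRCm38 and mm10, and strand and multiple mapping are not given in the sources used here. Symbols and coordinates are from GENCODE M21 of GRCm38, which named 46005 genes and left 512 unnamed. The members and gene lists were chosen with earlier results of these data known.

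Genes were split at random into 2 parts (seed 1), and cells were clustered with leidenalg 0.10.2 on 1000 variable genes of 1 part, without 153 listed genes (30 components, 15 neighbours, resolution 1). Members and listed genes were tested in the classes of part 1, other genes in classes drawn without their own part. Shares of all genes apart, highest or lowest in a class used the classes of part 1 throughout. They thus include genes that drew those classes, while the members did not draw them. Clusters were named from markers by a rule set after the clusters were seen: at least 3 markers with a count in 25% of cells and a margin of 0.25 over the next class. No doublet caller was run. Per mouse, the raw counts of a class were added up and tested with edgeR 4.0.16 (quasi-likelihood, TMM, filterByExpr, two-sided, Benjamini-Hochberg over all genes tested) in R 4.3.3, with the mouse as a block. The numbers pair the sums because 1 animal supplied every class: deviations of sums from 1 mouse correlated at 0.113 to 0.370 for male mouse 1, 0.0713 to 0.447 for male mouse 2 and 0.310 to 0.550 for female mouse 1 over 15 class pairs.

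Test values are given for every called member and for Fos, Jun, Egr1, Hspa1a and Hspa8; of other lists up to 4 called genes with the smallest adjusted p are named, and 10 genes most alike to the mean immediate early level. Tested on simulated counts for the pericyte comparison (16241 genes), the fit recovered 91.8% of genes changed 8-fold and 1.03% of those changed 2-fold. The simulation gave every gene the same spread, had no mouse effect and let classes differ only in the changed genes. Its shares hold for that setting and do not give the power of the test in the data. In the data Hspa8 was called in pericyte-like cells at less than a 2-fold change. Alternatives used DESeq2 1.42.0, RLE factors, no filter on low counts, other clusterings, thinned cells, other cell filters and each mouse left out.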

Additional observations from a re-analysis of the deposited data

How the results depend on the processing

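All 230 alternative values of the 16 called gene results kept their direction, and 79 of them no longer passed the threshold. The number of members called moved more. In airway against vascular SMC-like cells, 8 calls became 2 without the replicate block and 5 with the other gene part for clustering, and 1 to 1 with a mouse left out. In pericyte-like cells, 5 became 3 without the block, 0 with only the 2 classes in the fit, 3 with the other gene part, 12 with thinned cells, and 0 to 1 with a mouse left out. In alveolar fibroblast-like cells, 3 became 0 without the block, 7 with DESeq2, 9 with only the 2 classes, 1 with the other gene part, 6 with thinned cells, 6 with plate 045s alone, and 0 to 1 with a mouse left out. For alveolar myofibroblast-like against fibroblast-like cells, 0 became 1 with only the 2 classes and 1 with thinned cells. For subtypes P and E, 0 became 9 with DESeq2, 2 with no filter on low counts and 4 with thinned cells. The block changed no other count of calls. The cause of these changes was not tested, beyond the fewer mice of the fits without one. Thinning to 50000 counts moved the mean share of vascular SMC-like cells with a count from 100% to 99.83% for Fos, from 99.04% to 94.65% for Jun, from 99.84% to 97.61% for Egr1, from 97.89% to 91.64% for Hspa1a and from 99.03% to 97.19% for Hspa8. Directions that turned belonged to uncalled genes. Hspa1a in airway SMC-like cells went to 0.002 with the other gene part, 0.01 with both parts and, with a mouse left out, lay between −0.376 and 0.189, above 0 without male mouse 2. In pericyte-like cells it lay between −0.494 and 0.247, again above 0 without male mouse 2. Egr1 in alveolar fibroblast-like cells went to −0.077 with the members left in the clustering. Jun in subtype P went to −0.036 with the other gene part, −0.16 with both parts, −0.16 at resolution 2 and lay between −0.02 and 0.119 with a mouse left out, below 0 without male mouse 2. The stricter cell filter and plate 045s alone were not run for pericyte-like cells, nor the clustering with members for the subtypes, since these gave no value.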

Other observations

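Cells outside the 6 tested classes also held the members, and their values have no test. In 64 endothelial-like cells of female mouse 1, Fos was at 531.6 CPM, Egr1 at 246.4 CPM and Nr4a1 at 166.7 CPM in the sum of cells, while Jun was at 1631 CPM and Klf2, the flow-responsive factor of endothelium, at 195.9 CPM. In 50 macrophage-like cells of male mouse 1, Fos was at 4303 CPM, Dusp1 at 2399 CPM and Hspa1a at 1310 CPM. Klf2 was at 276.6 CPM there, so its level was not particular to the endothelial-like cells. Over the unnamed cells, Fos was at 3215, 2443 and 1968 CPM in the 3 mice.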
